A study of Microtus ochrogaster with 2 samples.

Results

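The genes described here are 8 astrocyte genes of transport and metabolism, namely the glutamate transporter genes Slc1a2 and Slc1a3, the bicarbonate cotransporter gene Slc4a4, the gap junction gene Gja1, the water channel gene Aqp4, the glycolytic gene Aldoc, the glutamine synthetase gene Glul and the transcription factor gene Sox9. They were chosen by name, with earlier results of these data known, out of 20077 protein-coding genes in the gene table. Every H3K4me1 peak with its midpoint within 50 kb of a gene was assigned to 1 of 3 zones. The zones were the gene body, the 5 kb beside it, and the stretch 5 to 50 kb away. The tissue was retrosplenial cortex, which lies along the dorsal midline of the brain, taken from prairie voles (Microtus ochrogaster), all male and 30 to 40 days old. A single H3K4me1 ChIP library was set against a single input library of the same tissue, that is, sheared chromatin sequenced without the antibody. The series names 8 males, but the labels do not say how many went into each library or whether they were pooled.

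Depth after filtering was 37430265 fragments in the ChIP library and 47554684 in the input. The list held 36238 peaks, with a median of 22 ChIP fragments at the summit and a median fold enrichment over the input background of 2.84. Since ChIP and input had 1 library each, nothing could be checked between replicates or tested between groups. The caller's q value per peak, from the authors' own run, was the only test behind each peak. In a dissected piece of cortex, the number of cells that carry a mark and the amount in each cell cannot be told apart.

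H3K4me1 is a single methyl group on lysine 4 of histone H3, found at enhancers and beside active promoters. Astrocytes take up glutamate after it is released at synapses, turn it into glutamine, buffer ions, acid and water around neurons, and pass small molecules to one another through gap junctions. The 8 genes encode steps of this work and a transcription factor of the lineage. The series set out to find enhancer regions in this cortical area, and the question here is which of these genes carried the mark, where and how strongly.

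The mark was unevenly spread over the 8 genes. Of the 6 genes whose sequence the gene table gives directly, Slc4a4, Slc1a3 and Aldoc carried 17, 8 and 3 peaks, and Gja1, Aqp4 and Sox9 carried none within 50 kb. The table gives Slc1a2 and Glul only as chromosome 14 and chromosome 6, labels that cover 3 and 2 sequences of the peak list. Both were placed by inference, matching runs of genes to sequences by their length, and on the inferred sequences Slc1a2 carried 9 peaks and Glul none.

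Together the 8 windows held 37 peaks, of which 30 lay in gene bodies, 4 within 5 kb of one and 3 between 5 and 50 kb away. The 6 directly placed genes held 28 of them, and Slc4a4 alone held 60.7% of those 28. A peak in the locus (body and 5 kb on each side) was found at 3 of the 6 directly placed genes and at 4 of all 8, against 45.7% of 13975 placed protein-coding genes. A peak in the body itself was found at 2 of the 6 and at 3 of the 8, against 37.8% of placed genes. A peak anywhere within 50 kb was found at 3 of the 6 and at 4 of the 8, against 74.8% of placed genes. The first 2 shares lay near those of all genes, and the last was lower, over a set too small to call it apart.

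Gene length went with these counts. The 3 genes longer than 20 kb (Slc1a2, Slc1a3 and Slc4a4) all had peaks in the body, as had 51.6% of placed genes of 20 to 100 kb and 82.0% of those of 100 kb or more. Of those 2 classes of placed genes, 58.0% and 82.9% had a peak in the locus, and 80.7% and 90.0% had one within 50 kb. Of the 5 genes shorter than 20 kb, Aldoc had a peak in the locus, and 28.9% of placed genes of that length had one. None of these 5 had a peak in the body, where 18.3% of short genes had one. Within 50 kb of the body 1 of the 5 had a peak, against 67.4% of short genes.

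Slc1a3 encodes GLAST, a sodium-driven glutamate transporter of astrocytes and radial glia. Its body of 72.3 kb held 7 peaks on chromosome 19, or 0.968 per 10 kb, where placed genes of 20 to 100 kb had a median of 0.123 and a 95th percentile of 1.04. Coverage of the locus was 3.67%, which 12.4% of placed genes matched or exceeded. No other protein-coding gene lay within 50 kb.

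The 7 body peaks of Slc1a3 lay between 35.3% and 88.4% of the way from the low-coordinate to the high-coordinate end, and the first 25.5 kb from the low-coordinate end had no listed peak midpoint. At 29139940 to 29140207 the ChIP library had 21 fragments, against an input background of 8.26 fragments, a 2.37-fold enrichment. The peak at 29143629 to 29143906 had 24 fragments against 6.65, a 3.27-fold enrichment. The next in this group, at 29144329 to 29144724, again had 21 against 8.26.

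A pair followed in the middle of Slc1a3, only 0.418 kb apart. The peak at 29152101 to 29152461 had 21 fragments against 6.23 (3.04-fold), and that at 29152880 to 29153530 had 18 against 6.23 (2.63-fold). The second was the widest of the gene, at 651 bp, and the weakest by fragments.

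The strongest peak of Slc1a3, at 29178337 to 29178640, lay toward the high-coordinate end. It had 26 ChIP fragments (exact 95% Poisson interval 17.0 to 38.1, counting error only) against 6.23, the lowest background in the list. Its 3.73-fold enrichment was matched or exceeded by 6.04% of all listed peaks. A neighbour at 29172857 to 29173350 had 22 fragments against 6.23 (3.18-fold). Beyond the gene, 446 bp from its high-coordinate end, the peak at 29187204 to 29187473 had 20 fragments against 6.25 (2.90-fold). Strand was not used here, so start and stop of transcription are not told apart at any gene. Intervals of all 8 Slc1a3 peaks overlapped one another, so their order by fragments is within counting error.

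Slc1a2 encodes GLT-1, the main glutamate transporter of adult forebrain astrocytes. On the sequence inferred for it, 14_random_1, the body of 131 kb held 6 peaks, or 0.458 per 10 kb, where placed genes of 100 kb or more had a median of 0.190 and an upper quartile of 0.405. Peaks covered 2.34% of the locus, and 20.7% of placed genes reached that value. The body peaks were more widely spaced than in Slc1a3, with gaps of 11.3 to 35.5 kb between them, against 0.418 to 19.3 kb in Slc1a3.

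The strongest Slc1a2 peak, at 8175467 to 8175883, had 28 ChIP fragments (18.6 to 40.5) against 6.23, the lowest background in the list. Its enrichment of 4.01-fold was reached by 2.85% of listed peaks. To its low-coordinate side lay a peak of 1036 bp at 8163113 to 8164148, with 23 fragments against 6.30 (3.29-fold), and another at 8148902 to 8149265, with 21 against 6.23 (3.04-fold). The 3 peaks nearer the high-coordinate end were weaker by fold. They had 21 fragments against 6.69 at 8211350 to 8212166 (2.86-fold), 26 against 10.23 at 8228859 to 8229241 (2.40-fold) and 22 against 7.76 at 8242576 to 8242851 (2.63-fold). The intervals of all Slc1a2 body peaks overlapped one another, so their order by fragments is within counting error. Their folds rest on the same counts.

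Within 5 kb of Slc1a2 no peak was listed, and 3 lay 5 to 50 kb away, all of them inside other genes. The first was in Cd44, which encodes a hyaluronan receptor, 41.3 kb from the low-coordinate end of Slc1a2, with 19 fragments against 6.23 (2.77-fold). The others lay in Pamr1, 29.3 and 30.0 kb from the high-coordinate end, with 26 fragments against 7.66 and 28 against 7.46.

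**Figure D1:**
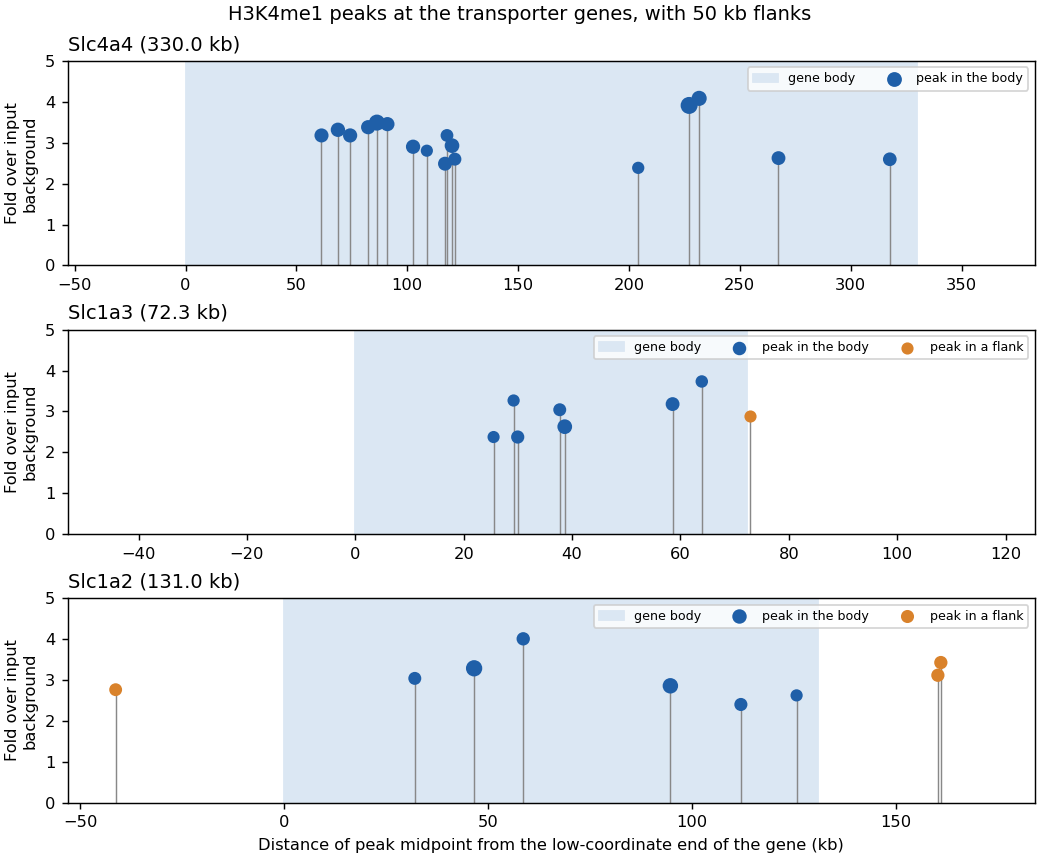
Each point is an H3K4me1 peak, at the distance of its midpoint from the low-coordinate end of the gene (kb) and at its fold enrichment over the input background, with larger points for wider peaks and the gene body shaded. Slc4a4 has 12 of its 17 peaks in a run toward the low-coordinate end, Slc1a3 has 7 peaks in the body and 1 beside it, and Slc1a2, on its inferred sequence, has 6 in the body and 3 in the flanks.

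Glul encodes glutamine synthetase, which joins ammonia to glutamate in astrocytes. On the sequence inferred for it, 6_random_2, no peak lay within 50 kb of its 10.02 kb body. The nearest was 86.8 kb away on the high-coordinate side, with 18 fragments against 6.75 (2.45-fold). Of placed genes of all lengths, 15.1% had their nearest peak at that distance or farther. In placed genes under 20 kb the nearest peak had an upper quartile of 68.7 kb and a 95th percentile of 213 kb.

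Slc4a4 encodes NBCe1, a sodium bicarbonate cotransporter by which astrocytes move acid equivalents. Its body of 330 kb on linkage group 1 held 17 peaks and its flanks none within 50 kb, and no other protein-coding gene lay in that window. Only 1.42% of placed genes had 17 or more body peaks. Per length the density was 0.515 per 10 kb, where placed genes of 100 kb or more had a median of 0.190, an upper quartile of 0.405 and a 95th percentile of 1.02. Among 251 placed solute carrier (Slc) genes, Slc4a4 ranked 4 by the number of peaks in the locus, after Slc24a2 with 25, Slc22a23 with 23 and Slc44a1 with 20, and Slc1a3 ranked 10. These genes were picked for comparison after their values were seen.

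A run of 12 peaks in Slc4a4 extended from 42230007 to 42290616, a span of 60.6 kb of which 10.6% was under peaks. It took up the stretch from 18.6% to 36.8% of the way along the gene. Within it the peaks had 17 to 33 ChIP fragments and were 0.461 to 11.01 kb apart. A gap of 82.4 kb then followed with no listed peak. The fullest 20% of the gene's length held 70.6% of its body peaks, a share reached by 2.04% of 442 placed genes with 10 or more body peaks, whose median was 42.9%. By the same measure the share was 71.4% over the 7 body peaks of Slc1a3 and 33.3% over the 6 of Slc1a2. Both of these genes had fewer body peaks than the 442 compared. This measure of layout was chosen after the positions had been seen.

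In that run the highest pileup was at 42251041 to 42251595, with 33 ChIP fragments (22.7 to 46.3) against 9.05 from the input, a 3.38-fold enrichment. Its neighbour at 42254795 to 42255764, 970 bp wide, had 27 against 7.01 (3.49-fold). The next, at 42259733 to 42260282, had 24 against 6.23 (3.46-fold). These 3 peaks stood close together, at gaps of 3.20 and 3.97 kb.

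The remaining peaks of the run had enrichments from 2.49-fold to 3.32-fold. The weakest was at 42285729 to 42286241, with 17 fragments (9.90 to 27.2) against 6.23, and it opened a tight group of 4 peaks spanning 4.89 kb. The first 3 peaks of the run had 22, 23 and 22 fragments, each against 6.23.

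The highest enrichments of Slc4a4 lay outside the run, in a pair of peaks 3.52 kb apart. The peak at 42400239 to 42400979 had 32 fragments (21.9 to 45.2) against 7.07, a 4.09-fold enrichment that 2.13% of listed peaks reached. The peak at 42395466 to 42396714 was the widest at any of the 8 genes, at 1249 bp, and had 28 fragments against 6.41 (3.91-fold). Single peaks elsewhere in this part of the gene were weaker. They had 23 fragments against 9.05 at 42372993 to 42373272 (2.39-fold), 22 against 7.76 at 42436161 to 42436652 (2.63-fold) and 20 against 7.08 at 42486376 to 42486841 (2.60-fold). Across the whole gene the intervals of all Slc4a4 peaks overlapped one another, so their order by fragments is within counting error. Their folds rest on the same counts.

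Gja1 encodes connexin 43, the main gap junction protein of astrocytes, and Aqp4 the water channel of their endfeet. Neither had a listed peak in its body or within 50 kb. The nearest peak to Gja1 was 116 kb away on linkage group 9, inside Tbc1d32, with 24 fragments and 2.53-fold enrichment. The nearest to Aqp4 was 240 kb away on chromosome 18, inside Kctd1, with 17 fragments and 2.49-fold enrichment. Of placed genes of all lengths 10.66% had their nearest peak as far as Gja1 or farther, and 3.36% as far as Aqp4. For placed genes under 20 kb the upper quartile of this distance was 68.7 kb and the 95th percentile 213 kb. No other protein-coding gene lay within 50 kb of either.

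Aldoc encodes aldolase C, the glycolytic aldolase of brain, where it is abundant in astrocytes. All 3 of its peaks lay beside the gene and none in its body of 3.77 kb. On the low-coordinate side the peak at 20780069 to 20780614, 951 bp away on chromosome 7, had 22 ChIP fragments against 9.05 from the input (2.29-fold). The peak at 20778283 to 20778628, 2837 bp away, had 18 against 6.23 (2.63-fold). On the other side, 781 bp away, the peak at 20785692 to 20785991 had 31 fragments (21.1 to 44.0) against 11.4, the highest background at any of the 8 genes, and an enrichment of 2.58-fold.

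Aldoc sits in a crowded stretch, with 6 other protein-coding genes within 50 kb. Pigs, a subunit of the enzyme that attaches GPI anchors, ended 1.56 kb away, and the peak at 20778283 lay in its body. Spag5, a mitotic spindle protein gene, began 0.636 kb from the other end, and the peak at 20785692 lay in its body. The middle peak lay between Pigs and Aldoc. By position the 3 peaks could therefore be assigned to Aldoc or to a neighbour. The 8.66% coverage of the Aldoc locus was reached by 2.60% of placed genes, and a locus this short is filled by few peaks.

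Sox9 encodes a transcription factor of glial progenitors and astrocytes. No peak was listed in its 5.24 kb body or within 50 kb, and no other protein-coding gene lay within 250 kb. Just beyond the 50 kb limit, on the high-coordinate side, were 2 peaks 52.9 and 62.7 kb away on chromosome 7. They had 20 and 21 fragments, each against 6.23, with 2.90-fold and 3.04-fold enrichment. Of placed genes of all lengths 24.1% had their nearest peak as far as the nearer of these or farther. Among placed genes under 20 kb the median distance was 23.6 kb and the upper quartile 68.7 kb, so Sox9 lay below that quartile.

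**Figure D2:**
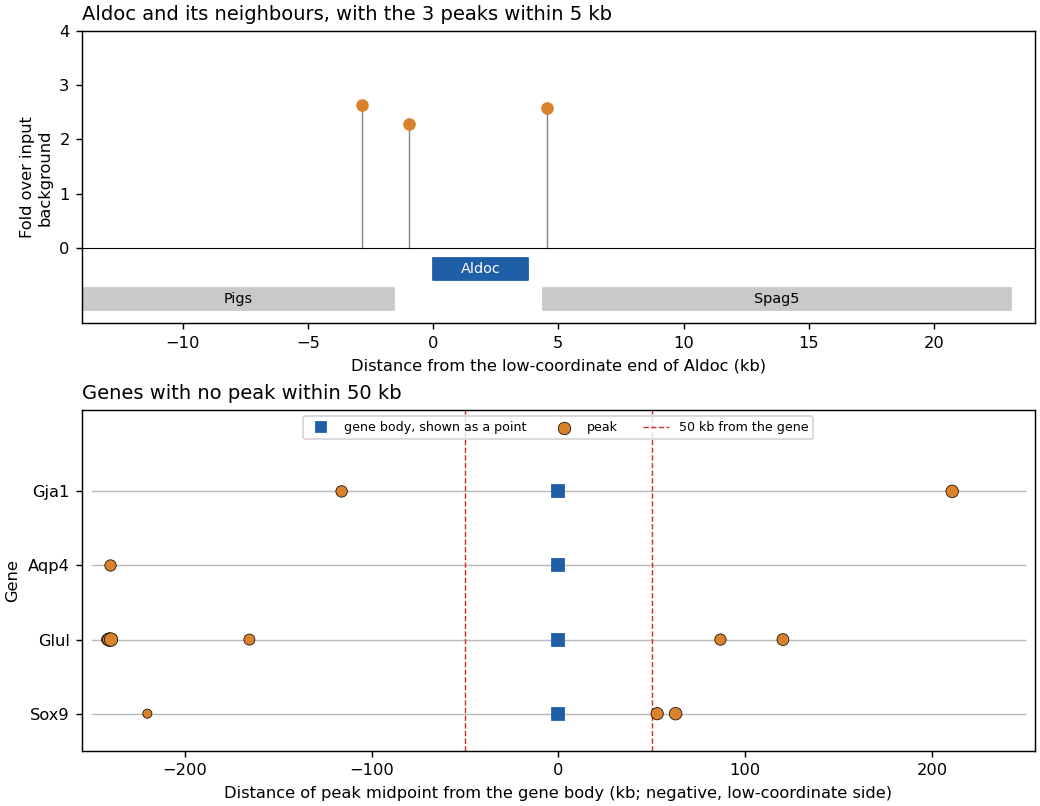
The upper panel plots the 3 Aldoc peaks by distance from the low-coordinate end of the gene (kb) and by fold enrichment, above the bodies of Aldoc, Pigs and Spag5, and the lower panel places every peak within 250 kb of Gja1, Aqp4, Glul and Sox9, with larger points for higher fold. Outer Aldoc peaks lie in Pigs and Spag5, and no peak of the other 4 genes lies inside the dashed lines at 50 kb.

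A gene without a listed peak is not shown to lack the mark. Where the input background stood at its lowest, 6.23 fragments, the weakest listed peak had 16 ChIP fragments and 2.35-fold enrichment, so weaker signal would not have entered the list. Of the 37 peaks, 15 (40.5%) stood on that lowest background, as did 34.5% of all peaks. At such peaks the fold is taken over a value shared across the genome and not over the input at the locus.

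In strength the peaks were ordinary members of the list. Over the 37 peaks the median was 22 ChIP fragments, as in all listed peaks, and the median fold was 2.93, beside 2.84 in all. The −log10 of the caller's q had a median of 3.18, beside 2.91 in all. Its lowest value was 1.70 at Slc4a4, 1.77 at Aldoc, 1.88 at Slc1a3 and 2.38 at Slc1a2, where the lowest in the list was 1.30. Some of these peaks were therefore called close to the cutoff. An enrichment of at least 3-fold was reached by 18 of the 37 (48.6%), against 36.7% of all peaks. At least 4-fold was reached by 2 of the 37, against 2.88% of all peaks. Peaks of 1000 bp or wider numbered 2, against 8.28% of all peaks, and no peak exceeded 1249 bp where the list reached 7321 bp.

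Median fold was 3.18 over the 17 peaks of Slc4a4, 3.04 over the 9 of Slc1a2, 2.97 over the 8 of Slc1a3 and 2.58 over the 3 of Aldoc. All 3 Aldoc peaks were below 3-fold, and the other 3 genes each had peaks on either side of it. The median width was 550 bp at Slc4a4 and 332.5 bp at Slc1a3, with 433 bp in all listed peaks.

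**Figure D3:**
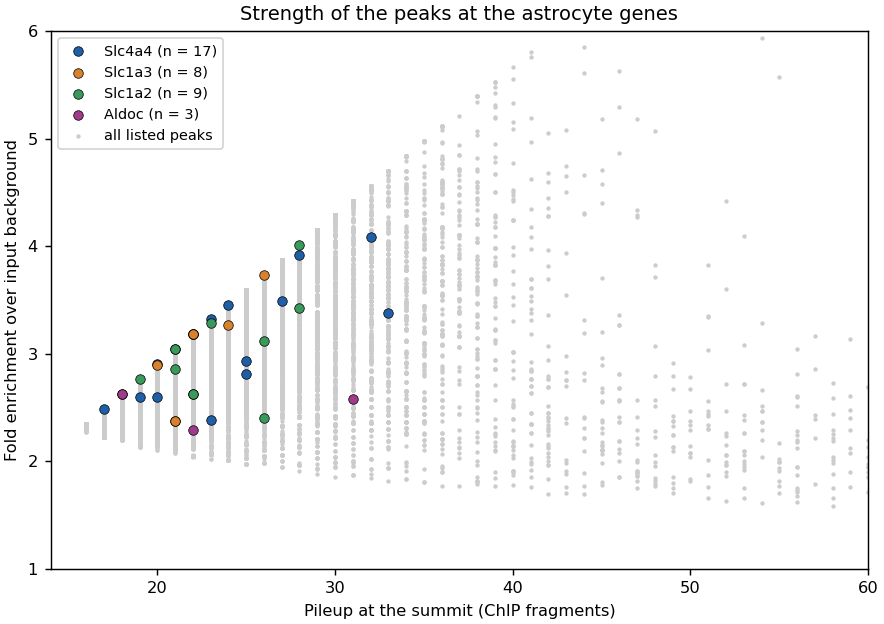
Each point is a peak, with ChIP fragments at its summit on the horizontal axis and fold enrichment over the input background on the vertical axis; coloured points are the peaks within 50 kb of 4 genes and grey points all listed peaks, of which 782 lie outside the plotted range. The 37 coloured points have 17 to 33 fragments and 2.29-fold to 4.09-fold enrichment, and the upper edge of the grey cloud is the lowest background.

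**Figure D4:**
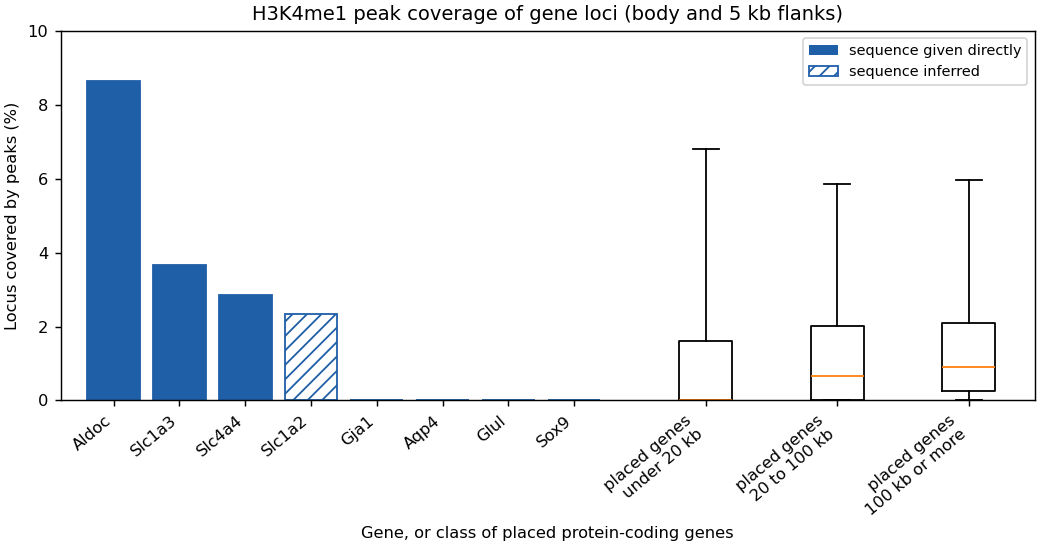
Bars give the percent of each locus (gene body and 5 kb on each side) covered by peaks in the 8 genes, hatched where the sequence was inferred, and boxes give the median, quartiles and 5th and 95th percentiles for placed protein-coding genes of 3 lengths. Aldoc at 8.66% is above the 95th percentile of short genes, 6.82%; Slc1a3, Slc4a4 and Slc1a2 at 3.67, 2.84 and 2.34% are above the upper quartile of their class, and 4 genes are at 0.

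Other genes of the same processes were described with the same measure. Of all placed genes 45.7% had a peak in the locus, with a median coverage of 0, and the share was 28.9% under 20 kb, 58.0% from 20 to 100 kb and 82.9% from 100 kb. No difference between a list and these shares was tested. Among other transporters and channels of astrocytes, 5 of the 14 placed genes (35.7%) had a peak in the locus, with a median coverage of 0 and a median body of 23.0 kb. Slc38a3, a glutamine transporter of astrocytes, had 2 peaks over 5.26% of its locus. Hepacam, a glial adhesion molecule, had 2 over 2.29%, and Kcnj16, an inward rectifier potassium channel subunit, 1 over 0.853%. Atp1b2, a subunit of the sodium pump, and the connexin gene Gjb2 had none.

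Among paralogues of the member transporters and channels, 5 of 24 placed genes (20.8%) had a peak in the locus, also with a median of 0, and 16 of the 24 were shorter than 20 kb. All 5 were solute carriers: 3 of 5 placed Slc4 genes and 2 of 4 placed Slc1 genes. None of 9 placed aquaporin genes, Aqp1 and Aqp11 among them, and none of 6 placed connexin genes had one. Of these, 8 of the 9 and 5 of the 6 were shorter than 20 kb, a length at which 28.9% of placed genes had a peak. Slc4a8, a sodium-driven bicarbonate transporter, had 6 peaks over 4.78% of its locus, and Slc4a3, an anion exchanger, had 1 over 3.06%. Slc1a1, the glutamate transporter of neurons, had 3 over 2.15%.

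In the glutamate-glutamine cycle, 8 of 14 placed genes (57.1%) had a peak in the locus, with a median of 0.804% and a median body of 40.3 kb. Slc38a3, also in the first list, led with 5.26%, followed by Slc38a2, a glutamine transporter of neurons, with 2 peaks over 5.21%. Glud1, glutamate dehydrogenase, had 3 over 4.56%. Abat and Aldh5a1, of GABA breakdown, had none.

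In glycolysis, glycogen and lactate metabolism, 9 of 17 placed genes (52.9%) had a peak, with a median of 0.531% and a median body of 22.5 kb. The enolase gene Eno1 had 4 peaks over 9.77% of its locus and Pfkm, the muscle phosphofructokinase, 5 over 8.59%, with a highest enrichment of 5.81-fold. Ppp1r3d, which directs a phosphatase to glycogen, had 1 over 4.07%. Aldoa, which encodes the aldolase of muscle and was named here after its value was seen, had 1 flank peak over 1.94%. Pfkfb2, of fructose bisphosphate turnover, had none.

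Transcription factors of the astrocyte lineage carried a peak at 13 of 21 placed loci (61.9%, against 45.7% of all placed genes), with a median of 0.768%. Of the 21, 11 were shorter than 20 kb and 7 were of 100 kb or more. Nfic, a nuclear factor I gene, had 8 peaks over 13.8% of its locus, with enrichment up to 4.81-fold. Hes1, an effector of Notch signalling, had 1 over 6.58%, and Sox8, of the same SoxE group as Sox9, had 2 over 6.58%. Sox10, the other of that group and named after its value was seen, had 1 flank peak over 2.06%. It is also counted among the oligodendrocyte markers below. Atf3 and Emx2 had none.

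Other astrocyte identity and metabolism genes carried a peak at 24 of 33 placed loci (72.7%, against 45.7% of all placed genes), with a median of 1.11%. Their median body was 32.3 kb, with 11 of the 33 shorter than 20 kb and 6 of 100 kb or more. Clu, which encodes the secreted chaperone clusterin, had 3 peaks over 7.91% of its locus, with enrichment up to 4.01-fold. Agt, the angiotensinogen gene, had 3 over 6.77%, and Entpd2, an enzyme that breaks down extracellular nucleotides, had 2 over 5.59%. Acsbg1 and Dio2 had none.

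Against defining markers of cortical cell types, a peak in the locus was found at 2 of 6 placed astrocyte markers (Aldoc and Slc1a3), 5 of 7 neuron, 4 of 8 oligodendrocyte, 4 of 9 microglia and 1 of 7 endothelial markers, against 45.7% of all placed genes. Median bodies were 12.3, 63.6, 14.9, 22.6 and 62.2 kb in the same order. Of the 7 neuron markers, 2 were shorter than 20 kb and 3 were of 100 kb or more. Of the 7 endothelial markers, 1 was shorter than 20 kb and 2 were of 100 kb or more. The part of length in these counts was not tested. No test between these lists was made. The astrocyte markers Gja1, Aqp4, S100b and Acsbg1 had no peak in the locus. Slc1a3, Aldoc, Gja1 and Aqp4 are themselves among the 8 genes described here, so the astrocyte count largely repeats their result. The Aldoc peaks could also be assigned to a neighbouring gene.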

How the data were processed

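Per the file headers, the authors called peaks with MACS 2.0.10.20131216 on paired-end fragments, ChIP against input, keeping 1 duplicate fragment per position, at a q of 0.05. The submitters' processing notes name the aligner BWA 0.7.12 but header paths name Stampy, so the aligner is unsettled. The signal deposited per peak is the pileup of ChIP fragments over the summit. The deposited fold is the ratio of that pileup to a background estimated by the caller from the input, with 1 added to each. A −log10 p and a −log10 q, from the caller's Poisson test before and after correction, were deposited too. All are the authors' values, used here only to describe and rank peaks within their list.

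The input background of a peak was derived from its pileup and fold, taking the fold as the pileup plus 1 over the background plus 1. Poisson intervals are exact at 95% and cover counting error only. Gene positions came from a RefSeq table of MicOch1.0, with no strand or exons. No source used here names the build of the peaks, so distances assume this one, and no gene coordinate is printed. Peak coordinates are as deposited, counted from 1. Peaks were assigned by midpoint. Placed genes are 13975 protein-coding genes on 28 sequences, without chromosome 14, chromosome 6 below 20 Mb and unplaced sequences. List genes outside these were not analysed here.

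In the gene table, chromosome 14 ran in 3 ascending runs of genes and chromosome 6 in 2. Each run was matched to the sequence with the nearest last position. For chromosome 14 the last gene ends were at 36.9, 16.1 and 15.3 Mb and the last peaks at 36.9, 16.1 and 15.2 Mb. For chromosome 6 they were at 88.3 and 14.2 Mb and at 88.2 and 14.3 Mb. Under this match 59.2 to 78.9% of peaks lay in genes, against 24.4 to 50.0% under other matches. It was chosen after the data were examined.

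Members and lists were chosen with earlier results of these data known. The text names the 8 members and, of each list, the 3 genes of highest coverage and the 2 alphabetically first placed genes without a peak. A gene that this rule names is not reported here. Counts were made in Python 3.11.15 with pandas 2.3.3 and SciPy 1.17.1, and the assignment to zones was tested on constructed intervals with known answers. Alternatives changed the peak set, flanks, assignment and genes. A planned search of promoters for motifs was not run, since no sequence was used here.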

Additional observations from a re-analysis of the deposited data

How the results depend on the processing

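Of 36 alternative runs, 32 planned and 4 added after the data were seen, 22 left a value within its limits and 14 moved it. Some of the 22 could not have moved. Gja1, Aqp4, Glul and Sox9 had no peak within 50 kb, so each coverage run there could only return 0. No peak at the 8 genes had a background above 11.4 fragments, so leaving out peaks over 5 times the lowest background removed none. Every coverage run at the other genes moved the value. The values are counts and percents, which have no direction to turn. For counts the limit was a fixed ratio, wide enough that 2 genes against 3 stayed within it. For percents it was a 95% interval that treats genes or bases as independent. The 28 peaks at the 6 directly placed genes became 16 at −log10 q of at least 3 and 13 at 3-fold or more, since fewer peaks enter, and 11 without Slc4a4. The 3 genes with a locus peak stayed between 2 and 4 in each run. Without the X the share of placed genes with a locus peak was 46.7%. With the gene body alone, coverage was 2.51% at Slc1a2, 3.80% at Slc1a3, 2.93% at Slc4a4 and 0 at Aldoc, and with 50 kb flanks 1.93%, 1.75%, 2.25% and 1.149%. The 8 clusters of neighbouring peaks became 16 when joined only up to 5 kb apart, and 15 with Slc1a2 and Glul. No paired analysis was possible because each group had 1 sample. The lowest pileup listed at the lowest background was 16 fragments, and the part of depth in that limit was not tested.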

Other observations

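If the sequences inferred for Slc1a2 and Glul were wrong, their counts would differ. On the other sequences of chromosome 14, the position of Slc1a2 held no peak within 50 kb on 14_random_2, and 1 in the body with 1 in the flanks on 14_random_3. On the main sequence of chromosome 6 the position of Glul held 2 peaks, both 5 to 50 kb away. Beyond the 50 kb limit, Pamr1 beside Slc1a2 held a further 3 peaks 57.1 to 79.6 kb from it, the strongest with 30 fragments and 4.29-fold enrichment. A peak 220 kb from Sox9 had 129 fragments but only 1.599-fold enrichment, over a raised input background.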
